A study of Mus musculus with 12 samples.

Results

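Nucleoside transporters carry adenosine, uridine, cytidine, thymidine and related compounds across membranes. They are described here across the small (SI) and large intestine (LI) of C57BL/6 mice. The 7 genes described are Slc28a1 to Slc28a3 and Slc29a1 to Slc29a4, which is 3 of the Slc28 family and 4 of the Slc29 family. All 7 were found by symbol among 55487 genes in the count table, and all 7 passed the filter on low counts, which kept 19581 genes. No cutoff on expression was used to choose them, but earlier results of these data were known.

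RNA was sequenced from 12 libraries in 4 groups of 3. SI tissue and LI tissue came from 1 mouse per library. Their titles and the sequencing methods name freshly isolated crypts, and a figure legend of the study names harvested intestine. SI monolayers and LI monolayers are crypts seeded as a flat epithelial culture on Matrigel and kept in control media for 24 h, with wells pooled into each library. SI crypts came from the jejunum. For culture they were released with EDTA alone, and LI crypts also with collagenase, dispase and DNase, so region and isolation procedure cannot be told apart. For culture, LI was taken from the same mice as SI. The sources do not say whether the crypts sequenced as tissue were isolated in the same ways, or which libraries shared a mouse. Seeding media held CHIR-99021, LDN-193189, Y-27632, EGF, R-spondin-1 and Wnt3a, and control media held Wnt3a, EGF, Noggin and R-spondin-1. The labels name no transgene and no oncology drug for any of the 4 groups, and they give no age. The methods of the study give an age range in weeks and both sexes, but not the age or sex behind each library.

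Nucleosides are too polar to cross the lipid bilayer, so cells that take up dietary or recycled nucleosides need carriers. The concentrative transporters of the Slc28 family couple uptake to the sodium gradient. In polarized epithelium they are known for sitting in the apical membrane. Slc28a1 (CNT1) prefers pyrimidine nucleosides, Slc28a2 (CNT2) prefers purine nucleosides and uridine, and Slc28a3 (CNT3) accepts both kinds. The equilibrative transporters of the Slc29 family move nucleosides down their gradient in either direction. Slc29a1 (ENT1) and Slc29a2 (ENT2) act mainly at the plasma membrane, and Slc29a2 also carries nucleobases. Slc29a3 (ENT3) resides in lysosomes and other inner membranes. Slc29a4, also named PMAT, carries monoamines and, at acid pH, adenosine. Several of these proteins also carry nucleoside drugs into cells.

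The genes lie on 7 chromosomes of GRCm38. Slc28a1 spans chr7:81114799-81170416 on the plus strand, Slc28a2 chr2:122426477-122461137 on the plus strand and Slc28a3 chr13:58545399-58610877 on the minus strand. Slc29a1 spans chr17:45585200-45599606 on the minus strand, Slc29a2 chr19:5023860-5031972 on the plus strand, Slc29a3 chr10:60712072-60752794 on the minus strand and Slc29a4 chr5:142692512-142722490 on the plus strand.

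The RefSeq sequences of GRCm38.p6 around the start sites of 3 genes are shown because Slc28a1 and Slc28a2 had the largest falls in SI culture and the largest SI excess in tissue among the 7, and Slc29a2 had the largest rise in culture. Each is 300 bases long, runs 5′ to 3′ on the plus strand and has in capitals every match, on either strand, to the GC box GGGCGG, the CCAAT box CCAAT, the TATA box TATAAA, the Cdx core TTTAT, the Hnf4 element CAAAGTCCA, the Hnf1 core GTTAAT or the Ets core TTCCGG. They lie at chr7:81114549-81114848, chr2:122426185-122426484 and chr19:5023756-5024055 in that order.
Slc28a1: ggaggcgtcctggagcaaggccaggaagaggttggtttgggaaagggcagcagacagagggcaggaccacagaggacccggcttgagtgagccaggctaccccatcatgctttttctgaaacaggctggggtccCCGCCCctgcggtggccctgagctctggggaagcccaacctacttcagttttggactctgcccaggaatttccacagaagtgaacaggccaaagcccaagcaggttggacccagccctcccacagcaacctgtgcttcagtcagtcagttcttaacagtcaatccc
Slc28a2: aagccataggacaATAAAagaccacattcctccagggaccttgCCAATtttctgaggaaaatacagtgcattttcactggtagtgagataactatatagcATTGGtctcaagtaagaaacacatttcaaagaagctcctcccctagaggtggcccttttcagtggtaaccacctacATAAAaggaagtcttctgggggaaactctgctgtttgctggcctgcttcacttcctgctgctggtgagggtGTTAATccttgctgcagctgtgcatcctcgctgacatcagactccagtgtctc
Slc29a2: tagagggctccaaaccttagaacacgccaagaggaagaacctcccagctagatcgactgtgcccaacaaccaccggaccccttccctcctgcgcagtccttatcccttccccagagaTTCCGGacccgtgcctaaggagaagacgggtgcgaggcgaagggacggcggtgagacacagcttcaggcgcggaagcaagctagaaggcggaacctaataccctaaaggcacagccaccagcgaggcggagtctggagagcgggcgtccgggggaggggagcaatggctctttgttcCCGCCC

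The sequence of Slc28a2 held 1 CG dinucleotide, that of Slc28a1 4 and that of Slc29a2 20, where the median of 32851 mouse promoters was 7. Slc28a2 had matches to the CCAAT box, the Cdx core and the Hnf1 core, Slc28a1 had a single GC box match, and Slc29a2 had an Ets core and a GC box match. These motifs were present in 37.4% (CCAAT), 40.0% (Cdx core), 7.10% (Hnf1 core), 14.9% (Ets core) and 35.7% (GC box) of all promoters of the same length. The Hnf4 element, found in 0.475% of them, and the TATA box, found in 13.6%, matched none of the 3. TTTAT overlaps the TATA box read on the opposite strand. No binding of any factor was measured.

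The libraries held 59016196 to 76216530 counts, and 3 counts, the limit that a count of 0 allows, corresponded to 0.0394 to 0.0508 CPM. Libraries of the same group differed by 2.21 to 9.13 times the counting noise. For this the counts were halved, as if both mates of each pair had been counted. Mitochondrial transcripts took 4.56% to 9.16% of counts in SI tissue, 2.25% to 2.59% in LI tissue and 0.472% to 0.750% in monolayers. All 11 epithelial markers, among them Epcam and Cdh1, were detected in all groups. Summed normalized counts of 12 immune markers lay between 31031 and 37658 in SI tissue and between 3720 and 4177 in culture of that region. In LI they lay between 3265 and 3877 for tissue and between 592 and 746 for monolayers. Sums of 12 enterocyte markers were 1135966 to 1759520 in SI tissue and 552514 to 573642 in SI monolayers, and in LI they were 110561 to 149208 in tissue and 44215 to 49959 in monolayers. Of the 12, 6 fell in SI culture, as did 16.4% of all tested genes, and 2 fell in LI culture, as did 23.5%. In LI culture the median log2 difference of the 12 was 0.55, and Krt20 took 98559 normalized counts in tissue and 23752 in monolayers. Of 10 colonocyte markers, 9 fell in LI culture, against 23.5% of all tested genes. Sums of the 10 in LI were 381794 to 546666 in tissue and 48862 to 51928 in monolayers. In bulk RNA, fewer cells of a type and less RNA per cell cannot be told apart, and the part of any of these differences in the results on transporters was not tested.

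A pair of libraries stood apart in genes that matter here. LI tissue replicate 1 was the highest LI tissue library for 8 of the 12 enterocyte markers. For lactase (Lct) it held 271 normalized counts against 23.8 and 3.57, while SI tissue averaged 42469. SI tissue replicate 3 had the highest sum of 10 Paneth cell markers, 1806002 normalized counts against 368618 and 703866, and the lowest enterocyte sum of its group. For Slc28a1 and Slc28a2, some results that rest on these libraries are also given without them. The other levels, shares and differences are given with all libraries.

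Among the concentrative transporters, Slc28a1 was the most abundant transporter gene in SI tissue and was at 0 in 2 of 3 LI tissue libraries. Its normalized counts, which are read counts divided by 1 scaling factor per library, were 15776, 14887 and 10880 in SI tissue. SI monolayers held 133, 106 and 103. These are 0.824% of the tissue mean, and the libraries did not overlap. LI tissue replicate 1 held 70.5 normalized counts, and Slc28a1 was at 0 in the other LI tissue libraries. LI monolayers held 7.70, 41.3 and 29.6. The LI monolayer libraries therefore lay within the range of the LI tissue libraries.

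On the log2 scale Slc28a1 fell by 6.89 ± 0.62 (SE) in SI monolayers relative to SI tissue, with an edgeR quasi-likelihood adjusted p of 1.29e-05. The same comparison in LI gave a log2 difference of 0.19 ± 1.20 and an adjusted p of 0.899. Without LI tissue replicate 1, both remaining LI tissue libraries are at 0, the edgeR adjusted p becomes 0.0130 with LI monolayers higher, and the fitted fold is then set by the prior count. SI tissue exceeded LI tissue by 9.27 ± 0.74 on the log2 scale (adjusted p 7.08e-06). Set against the 2 LI tissue libraries at 0 and a floor of 3 counts per library, the SI tissue mean was at least 5043-fold higher. If both mates of each pair were counted, 6 counts take the place of 3 and the SI tissue mean was at least 2521-fold higher. Against LI tissue replicate 1 alone it was 196-fold higher. SI monolayers exceeded LI monolayers by 2.19 ± 0.89, with an adjusted p of 0.0720 that did not pass the threshold of 0.05, although the libraries did not overlap. This difference passed in 1 of 12 fits with a library left out, the fit without LI tissue replicate 1. It also passed with only the 2 groups compared.

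The level of Slc28a1 in LI libraries moved with that of other SI enterocyte genes. LI tissue replicate 1 held 0.509% of the SI tissue mean for Slc28a1, 0.637% for Lct and 0.640% for Enpp7, an intestinal alkaline sphingomyelinase. LI monolayer replicate 2, the highest of its group for Slc28a1 at 0.298% of the SI tissue mean, was also the highest of its group for all 12 enterocyte markers, with Lct at 0.451%. Replicate 1, the lowest for Slc28a1 at 0.0556%, had Lct at 0.109%. Whether SI material in LI libraries had a part in these values was not tested.

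Slc28a2 was higher in SI than in LI in both preparations and lower in monolayers than in tissue in both regions. Its normalized counts were 3023, 3103 and 5475 in SI tissue and 575, 597 and 591 in SI monolayers. LI tissue held 304, 391 and 179, and LI monolayers 95.3, 109 and 63.2. The 4 groups did not overlap. Both SI groups lay above both LI groups, and within each region tissue lay above monolayers. The gene fell by 2.69 ± 0.32 on the log2 scale in SI monolayers (edgeR adjusted p 5.66e-05) and by 1.67 ± 0.38 in LI monolayers (adjusted p 0.00353). SI exceeded LI by 3.78 ± 0.34 in tissue and by 2.76 ± 0.37 in monolayers.

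The third SI tissue library, the one high in Paneth markers, had the highest Slc28a2 level of all 12. Without it the fall in SI monolayers was 2.34 on the log2 scale and the SI excess in tissue 3.43, and both still passed the threshold. Slc28a2 shares 35.4% of the 50-base stretches of its transcripts with Gm14085, a neighbouring gene that RefSeq names Slc28a2b, so reads from the shared stretches cannot be assigned to 1 of the pair and the level of Slc28a2 is uncertain by that part. Gm14085 itself held 0.963 to 148 normalized counts and made up 1.5% to 2.74% of the sum of both genes in the 4 groups. For the other 6 members the shared part was 0% to 4.62%. The antisense gene Gm17080, which shares 275 exon bases with Slc29a1, held 0 to 7 counts.

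Slc28a3 fell in culture in both regions and differed little between SI and LI tissue. SI tissue held 1526, 1528 and 1371 normalized counts, and SI monolayers 527, 601 and 514. LI tissue held 1035, 970 and 1267, and LI monolayers 160, 195 and 162. No pair of neighbouring groups in this order of levels (SI tissue, LI tissue, SI monolayers, LI monolayers) overlapped. The log2 change in culture was -1.39 ± 0.11 in SI (adjusted p 2.38e-08) and -2.62 ± 0.12 in LI (adjusted p 1.60e-11). The excess of SI over LI was 0.47 ± 0.11 in tissue, under the minimum of 1 set for a call, and 1.70 ± 0.12 in monolayers, which passed it.

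**Figure D1:**
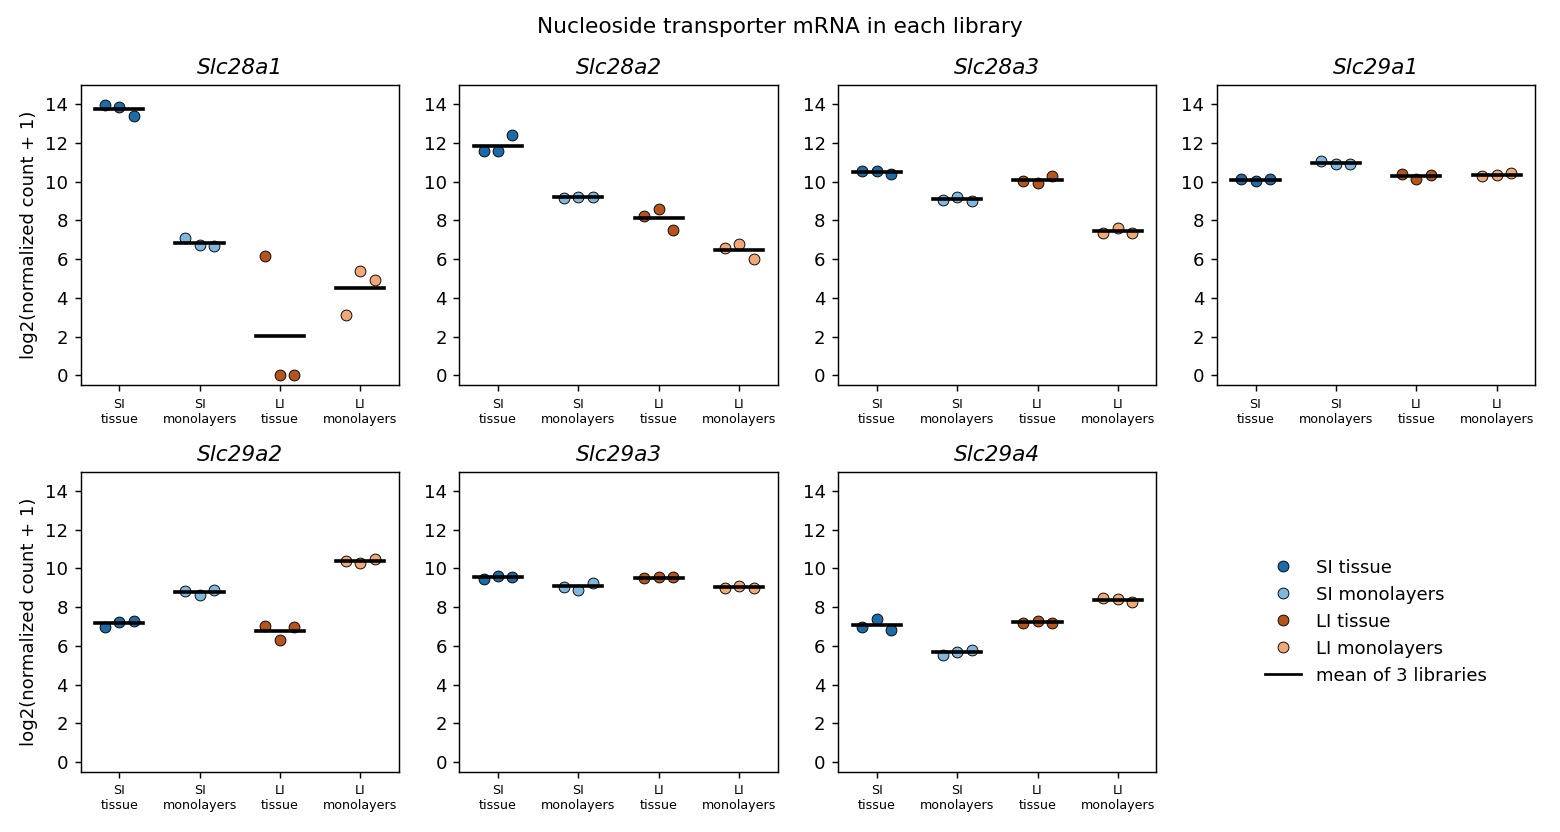
Level of each nucleoside transporter gene in each of the 12 libraries, as log2 of the normalized count plus 1 (vertical axis) by group (horizontal axis). Points are libraries and black lines the means of 3 libraries on that scale. Slc28a1 ranges from 15776 normalized counts in SI tissue to 0 in a pair of LI tissue libraries, while Slc29a1 and Slc29a3 stay within a narrow band.

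Of the equilibrative transporters, Slc29a1 was highest in SI monolayers. Its normalized counts were 1115, 1032 and 1124 in SI tissue and 2147, 1951 and 1939 in SI monolayers. LI tissue held 1333, 1117 and 1288, and LI monolayers 1242, 1305 and 1412. SI monolayers lay above every library of the other groups, and LI tissue overlapped both SI tissue and LI monolayers. The log2 difference between SI monolayers and SI tissue was 0.92 ± 0.08 with an adjusted p of 5.71e-08, just under the minimum of 1. In LI it was 0.13 ± 0.08 with an adjusted p of 0.166.

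Slc29a2 rose in culture in both regions, and more in LI. SI tissue held 125, 148 and 157 normalized counts and SI monolayers 460, 393 and 478. LI tissue held 132, 78.7 and 125, and LI monolayers 1323, 1255 and 1426. The libraries of SI and LI tissue overlapped, whereas both monolayer groups lay above all tissue libraries and LI monolayers lay above SI monolayers. The log2 change in culture was 1.66 ± 0.16 in SI (adjusted p 1.94e-07) and 3.62 ± 0.17 in LI (adjusted p 1.16e-11). The log2 difference of SI over LI monolayers was -1.56 ± 0.15. In tissue the difference of SI over LI was 0.40 ± 0.17, with an adjusted p of 0.0584.

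Slc29a3, the lysosomal member, differed least between groups. Its normalized counts were 695, 794 and 749 in SI tissue and 532, 475 and 612 in SI monolayers. LI tissue held 725, 745 and 746, and LI monolayers 516, 537 and 506. Monolayer libraries lay below tissue libraries in both regions, and SI and LI overlapped in both preparations. The log2 difference of monolayers from tissue was -0.43 ± 0.10 in SI and -0.46 ± 0.10 in LI, with adjusted p of 0.00158 and 7.57e-04, and neither reached the minimum of 1.

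Slc29a4 moved in opposite directions in the cultures of the 2 regions. It fell from 125, 167 and 113 normalized counts in SI tissue to 46.1, 49.9 and 53.8 in SI monolayers. In LI it rose from 142, 156 and 145 in tissue to 350, 345 and 310 in monolayers. The libraries of tissue and monolayers did not overlap in either region, and those of SI and LI tissue overlapped. The log2 change was -1.40 ± 0.19 in SI (adjusted p 7.71e-06) and 1.23 ± 0.17 in LI (adjusted p 8.01e-06). SI and LI tissue differed by -0.09 ± 0.17 (adjusted p 0.706), and SI monolayers lay below LI monolayers, with a log2 difference of -2.72 ± 0.19.

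Counted over the family, 5 of 7 members passed an adjusted p of 0.05 and a log2 change of at least 1 in SI monolayers against SI tissue, where 26.1% of all tested genes did. Slc29a2 rose, as did 9.71% of all tested genes, and Slc28a1, Slc28a2, Slc28a3 and Slc29a4 fell, as did 16.4%. The median log2 difference of the 7 was -1.39, and that of all tested genes was -0.05. The libraries of tissue and monolayers did not overlap for 7 of 7 members, against 66.4% of all tested genes. In LI monolayers against LI tissue, 4 of 7 passed, where 38.0% of all genes did. Slc29a2 and Slc29a4 rose, as did 14.5% of all genes, and Slc28a2 and Slc28a3 fell, as did 23.5%. The median was 0.13 for the members and -0.05 for all tested genes, and 5 of 7 did not overlap against 73.1% of all genes, so the members' counts in LI were near the background.

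Between the regions, 2 of 7 members passed in tissue, where 22.7% of all tested genes did, and 4 of 7 passed in monolayers, where 21.2% did. Slc28a1 and Slc28a2 were higher in SI tissue, as were 11.6% of all tested genes, and 0 of 7 were higher in LI tissue, against 11.1%. Without the fold minimum, Slc28a3 also passed, and 0 of the 7 had a negative difference at an unadjusted edgeR p under 0.05 or passed as lower by DESeq2. In monolayers Slc28a2 and Slc28a3 were higher in SI, as were 12.4% of all genes, and Slc29a2 and Slc29a4 were higher in LI, as were 8.88%. The libraries of SI and LI did not overlap for 3 of 7 members in tissue and 6 of 7 in monolayers, against 58.8% and 62.3% of all tested genes. The members' median log2 difference of SI over LI was 0.40 in tissue and 0.64 in monolayers, and that of all genes was 0.06 and 0.02.

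**Figure D2:**
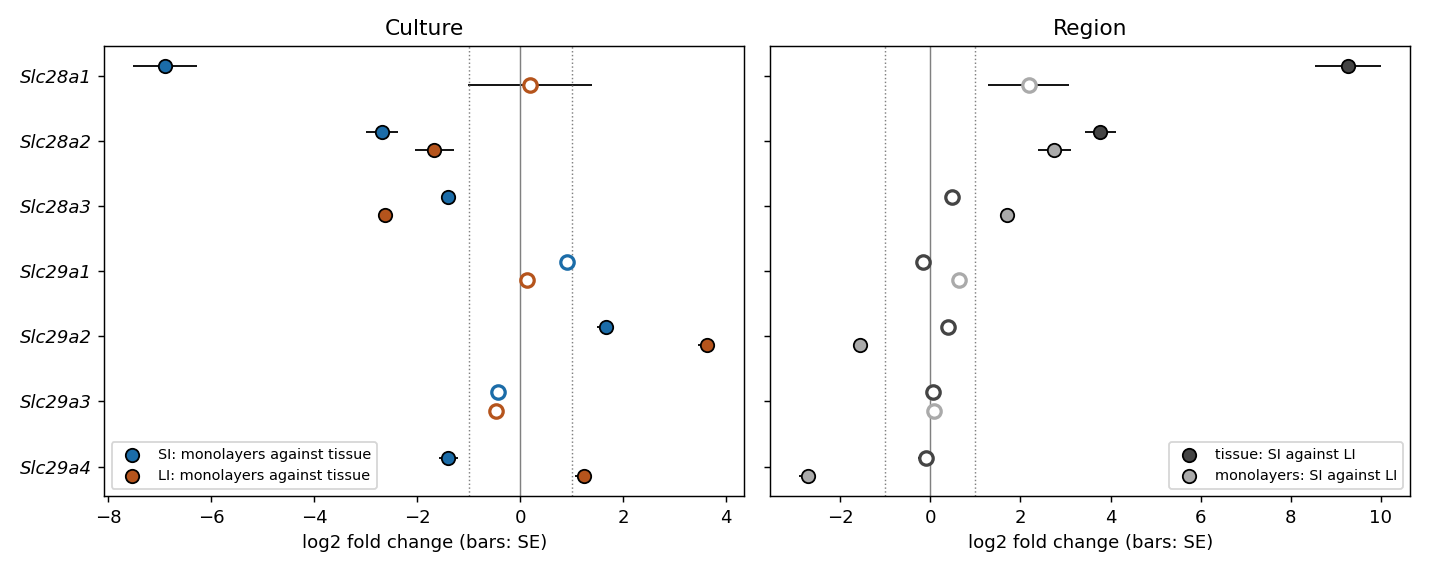
Log2 fold change of the 7 genes between monolayers and tissue (left) and between SI and LI (right), from the edgeR fit of all 12 libraries. Bars are standard errors, filled points passed an adjusted p of 0.05 and a log2 change of at least 1, open points did not, and dotted lines mark a log2 change of 1 in either direction. Slc29a4 has points on opposite sides of 0 in the left panel, at -1.40 in SI and 1.23 in LI.

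The difference between the culture responses of the regions was tested directly, as the log2 change in SI minus that in LI. It passed the threshold for 4 of 7 members, where 20.0% of all tested genes passed, 11.4% with a positive and 8.51% with a negative difference. Slc28a1 gave -7.08 ± 1.55 (edgeR adjusted p 0.00545), which rests on an LI tissue level set by 1 library. Slc28a3 gave 1.23 ± 0.17 (adjusted p 1.68e-05), since its fall was smaller in SI. Slc29a2 gave -1.96 ± 0.23 (adjusted p 3.33e-06) and Slc29a4 -2.63 ± 0.25 (adjusted p 4.98e-07). For Slc28a2 the difference was -1.02 ± 0.49 with an adjusted p of 0.127, and for Slc29a3 it was 0.03 ± 0.14. Slc29a1 gave 0.79 ± 0.11 with an adjusted p of 3.19e-05, under the minimum size.

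The makeup of the family was compared between genes on a scale of normalized counts per kilobase of merged exons. The 7 genes together reached 6294 ± 562 (SD, n = 3) per kilobase in SI tissue and 1007 ± 37.1 in SI monolayers. LI tissue reached 741 ± 37.3 and LI monolayers 1030 ± 31.9. The Slc28 family made up 92.1% ± 0.857 (SD, n = 3) of this level in SI tissue and 24.6% ± 1.35 in SI monolayers. In LI it made up 29.1% ± 1.72 in tissue and 5.05% ± 1.13 in monolayers. The share of Slc28 was thus lower in monolayers than in tissue in every library of either region, and the lowest SI tissue share was 91.2%.

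Per kilobase, the leading gene differed between the groups. Slc28a1 led in SI tissue with 4694 ± 884 (SD, n = 3), followed by Slc28a2 with 919 ± 331 and Slc29a1 with 272 ± 12.7. Slc29a1 led in SI monolayers with 502 ± 29.2 and in LI tissue with 311 ± 28.4. In LI monolayers Slc29a2 led with 442 ± 28.6, ahead of Slc29a1 with 329 ± 21.5. Slc29a1 and Slc29a2 thus held 49.9% and 14.6% of the summed level in SI monolayers, and 32.0% and 42.9% in LI monolayers.

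**Figure D3:**
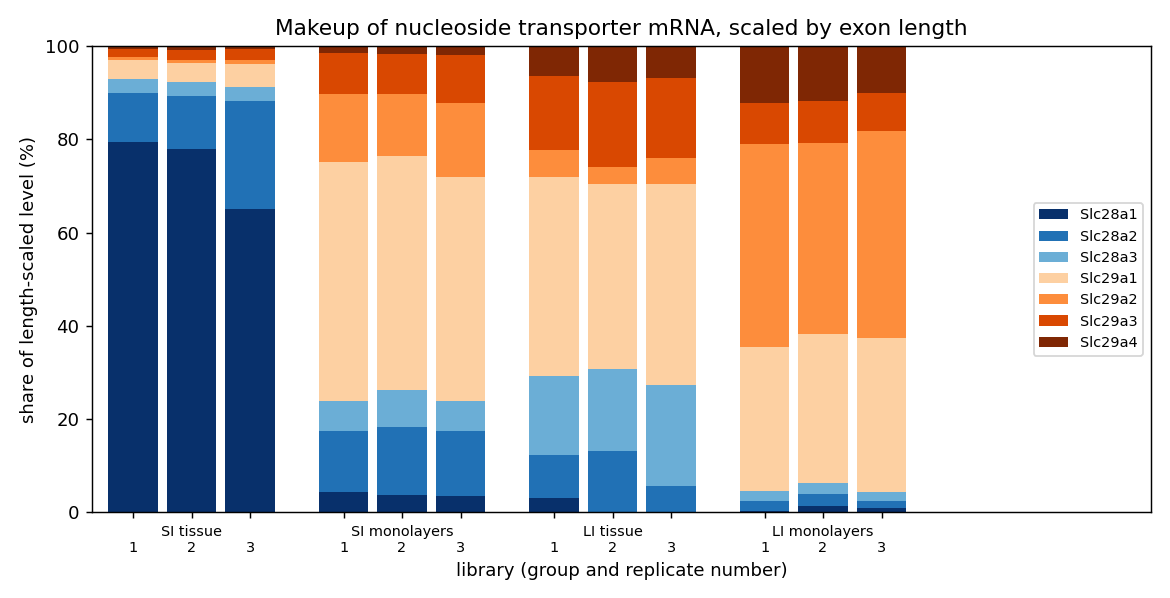
Share of each gene in the summed length-scaled level of the 7 transporters (vertical axis, percent) in each library (horizontal axis). Blue parts are the concentrative Slc28 genes and orange to brown parts the equilibrative Slc29 genes. The blue part averages 92.1% in SI tissue and 5.05% in LI monolayers.

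The genes most like each transporter were taken by Pearson r of log2 CPM over the 12 libraries, among 9211 or 9212 other genes. The libraries fall into 4 groups and share their preparation, so r mostly compares 4 levels and is given as a description. Slc28a1 was most like Lct (r = 0.991) and Enpp7 (r = 0.985), both enzymes of the enterocyte brush border. Slc28a2 was most like Sesn1 (0.989), a stress-inducible sestrin, and Slco2b1 (0.984), an organic anion transporter. Slc28a3 was most like Pycrl and Plbd1 (both 0.996), and Slc29a1 most like Ephx1 (0.978), an epoxide hydrolase, and Erfe (0.975). Slc29a2 was most like Mllt1 (0.995) and Relb (0.993), an NF-kappaB subunit. Because r ignores the size of a change, a like gene can change by more or less. Mean normalized counts of Slc29a2 were 112 in LI tissue and 1334 in LI monolayers. Those of Mllt1 were 3535 and 6038, and those of Relb 3885 and 8927. Slc29a3 was most like Lyn (0.953), a Src family kinase, and Ndufa11 (0.947), a complex I subunit, and Slc29a4 most like Max (0.983), the partner of Myc, and Ipmk (0.978). Among the members, Slc28a3 and Slc29a2 had the most negative r, -0.945.

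Once inside the cell, nucleosides are trapped by phosphorylation or broken down. Of 14 genes for nucleoside phosphorylation and nucleobase salvage, 1 rose and 1 fell in SI monolayers, 1 fell in LI monolayers and the rest passed in neither. Of all tested genes, 26.1% passed in SI culture and 38.0% in LI culture. Hprt, which salvages hypoxanthine and guanine, rose by 1.0 on the log2 scale in SI, and Cmpk2, a mitochondrial nucleotide kinase, fell by 3.09 in SI and by 1.76 in LI. The nucleoside kinases Dck, Tk1 and Adk passed in no comparison. Log2 differences in SI and LI culture were 0.30 and 0.67 for Dck, -0.47 and -0.46 for Tk1 and -0.35 and -0.14 for Adk. The median of the list was 0.09 in SI and -0.22 in LI culture. Between SI and LI tissue, 2 of the 14 were lower in SI, as were 11.1% of all tested genes. These were the mitochondrial thymidine kinase Tk2 with a log2 difference of -1.83 and the nucleotide kinase Cmpk1 with -1.03. Of 12 proliferation markers, 1 rose in SI culture (median 0.60) and 3 rose in LI culture (median 0.52), Mcm3 in both by 1.24 and 1.87, while Mki67 gave -0.12 and -0.04. Rises were called for 9.71% of all tested genes in SI culture and 14.5% in LI culture.

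Of 17 tested genes for breakdown of nucleosides and nucleobases, 2 rose and 8 fell in SI monolayers (median -0.88), and 3 rose and 6 fell in LI monolayers (median -0.84). For comparison, 9.71% of all tested genes rose and 16.4% fell in SI culture, and 14.5% rose and 23.5% fell in LI culture. Guanine deaminase Gda fell by 4.26 in SI and fell by 1.45 in LI. Dpyd, which starts pyrimidine degradation, fell by 3.24 in SI and by 3.50 in LI. Uridine phosphorylase Upp1 fell by 2.59 in SI and fell by 4.92 in LI. Adenosine deaminase Ada fell by 2.44 in SI and gave 0.84 in LI, and the difference of these responses was -3.28 ± 0.35 (adjusted p 6.82e-05). Cytidine deaminase Cda fell by 1.35 in SI and gave -0.25 in LI. Nt5c2, a cytosolic nucleotidase, rose by 2.09 in SI and 2.53 in LI, and the deaminase Dctd by 1.27 and 1.76. Pnp, the purine nucleoside phosphorylase, rose by 1.38 in LI, but its neighbour Pnp2 may share its reads, which was not tested.

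Between SI and LI tissue, 8 of the 17 breakdown genes were higher in SI and 2 in LI. Of all tested genes, 11.6% were higher in SI tissue and 11.1% in LI tissue. Cda exceeded LI tissue by 3.69 on the log2 scale and Dpyd by 3.44, while Upp1 and the nucleotidase Nt5c3 were lower in SI, with log2 differences of -1.75 and -1.22. The culture response of Nt5c3 differed between the regions by 1.45. In monolayers 5 were higher in SI, as were 12.4% of all tested genes, with Cda (2.60) and Dpyd (3.70) among the 5.

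Outside the cell, ectoenzymes release nucleosides from nucleotides. Of 14 genes for such enzymes and their relatives, 2 rose and 5 fell in SI monolayers. In LI monolayers 2 rose and 4 fell, and the medians were -0.49 in SI and -0.34 in LI. Of all tested genes, 26.1% passed in either direction in SI culture and 38.0% in LI culture, so the LI count was near the background. Nt5e (CD73), which makes adenosine from AMP, fell by 3.24 in SI and by 2.01 in LI and was lower in SI than LI tissue, with a log2 difference of -2.62. Enpp3, an ectonucleotide phosphodiesterase, fell by 5.01 in SI and was higher in SI than LI tissue by 5.65. Its relative Enpp1 rose by 1.26 in SI, and Entpd8 fell by 1.55 in LI. Enpp4 was lower in SI in both preparations, with log2 differences of -1.02 in tissue and -1.26 in monolayers. The SI response exceeded the LI response by 1.26 for Entpd5 and by 1.56 for Enpp1. Alpi, intestinal alkaline phosphatase, was higher in SI tissue by 4.65 and in SI monolayers by 3.68. It may share reads with its neighbour Akp3, which was not tested. Of 3 tested adenosine receptor genes, 1 fell in SI and 2 fell in LI, where 16.4% and 23.5% of all tested genes fell. Adora2b fell by 3.81 in SI and by 1.89 in LI.

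Of 8 tested genes for other nucleobase and nucleotide carriers, 2 rose and 3 fell in each culture, with medians of -0.96 in SI and -0.12 in LI, against 26.1% and 38.0% of all tested genes called. Slc23a4, the rodent sodium-dependent nucleobase transporter, fell by 2.14 in SI and fell by 4.68 in LI. Slc43a3, an equilibrative nucleobase transporter, fell by 1.85 in SI and gave 0.83 in LI. The efflux pumps Abcc4 and Abcc5, which export nucleotides and their analogs, rose by 2.24 and 2.02 in SI and by 2.39 and 2.10 in LI. Abcg2, another efflux pump, fell by 1.75 in LI. Of 20 genes for de novo nucleotide synthesis, 6 rose and 1 fell in SI monolayers (median 0.62), and 10 rose and 1 fell in LI monolayers (median 1.0). Of all tested genes, 9.71% rose and 16.4% fell in SI culture, and 14.5% rose and 23.5% fell in LI culture. Ctps, a CTP synthase, rose by 1.44 and 2.34, and Cad, the first enzyme of pyrimidine synthesis, rose by 1.35 in SI and 1.32 in LI. Adss, of adenylate synthesis, rose by 2.13 in LI. Between the regions, Impdh1 (-1.03) was lower in SI tissue and Paics (-1.06) in SI monolayers, both enzymes of purine synthesis.

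**Figure D4:**
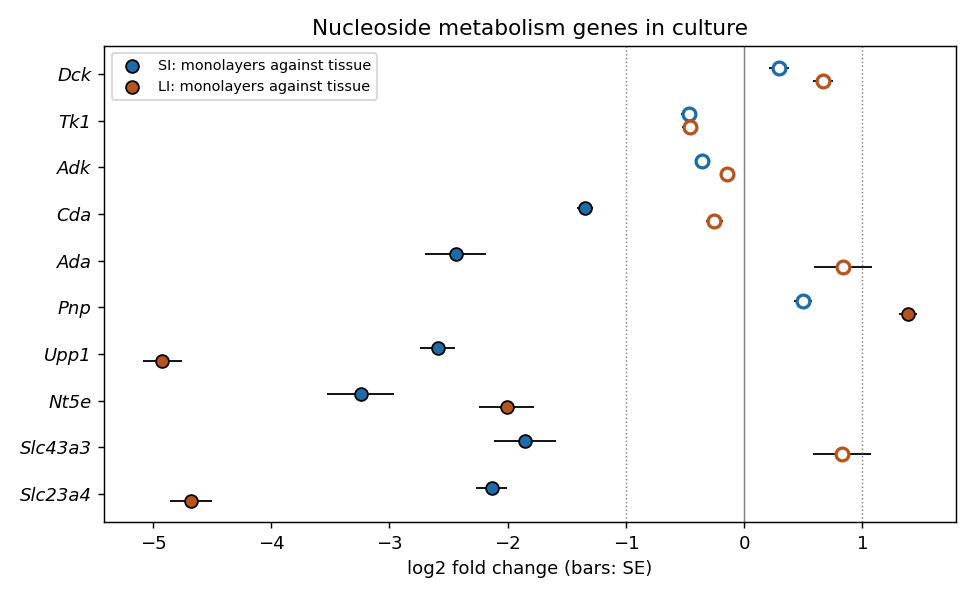
Log2 fold change of monolayers against tissue in SI (blue) and LI (brown) for 10 genes that phosphorylate, degrade, release or otherwise carry nucleosides and nucleobases. Bars are standard errors, filled points passed an adjusted p of 0.05 and a log2 change of at least 1, and dotted lines mark a log2 change of 1 in either direction. Dck, Tk1 and Adk are open in both regions, and Upp1 and Slc23a4 lie furthest below 0 in LI, at -4.92 and -4.68.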

How the data were processed

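RNA was sequenced from 12 mouse libraries, 3 in each of 4 groups, with groups taken from the labels. The authors deposited raw read counts for each gene. They came from paired-end Illumina reads, aligned to GRCm38 with STAR 2.7.9a and counted with featureCounts 2.0.2. The authors also deposited normalized signal, in which the counts of each library are divided by 1 DESeq2 size factor. The submitters' notes give 3.13 as the DESeq2 version. Strand and mate counting are not given in the sources used here. Between 73.4% and 77.4% of nonzero counts of at most 20 were even, so both mates may have been counted.

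Gene symbols, positions and exon lengths came from GENCODE annotation of GRCm38, which named 55141 of 55487 genes. Counts were tested with edgeR 4.0.16 (filterByExpr, TMM, robust glmQLFit, 1 model of the 4 group means), with Benjamini-Hochberg adjustment over 19581 genes within each comparison. A call needed an adjusted p under 0.05 and a log2 fold change of 1 or more in either direction. The SE of each log2 difference was the absolute difference divided by the square root of the quasi-likelihood F statistic. The median biological coefficient of variation (0.127) was estimated from all groups. The fit was tested on simulated counts. Depth was 59016196 to 76216530 counts. Tissue groups came from 3 mice each and culture groups from pooled wells, and the number of mice behind the wells is not known, so p-values in culture measure the spread between these samples. The floors cover counting error only, while the SE and SD values include the spread between libraries.

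The members and lists were chosen with earlier results of these data known. Named were all members, 11 fixed genes of nucleoside metabolism and proliferation, the 2 largest called rises and falls per list and comparison among genes averaging 10 CPM or more, and the 2 genes most like each member. Other genes and values, such as Lct by library, Adora2b, Mcm3 and Krt20, were picked after their values were seen. Shared sequence was counted as 50-base stretches of annotated transcripts. Alternatives were DESeq2 1.42.0, upper quartile normalization, other filters, fits of just the groups compared, a block for the replicate number, calls at any fold change, counts halved and each library left out.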

Additional observations from a re-analysis of the deposited data

Results flagged for a closer look

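The response to culture differed between SI and LI, by the edgeR interaction test, for 4 transporters. The difference of the log2 changes, SI minus LI, was -7.08 for Slc28a1, 1.23 for Slc28a3, -1.96 for Slc29a2 and -2.63 for Slc29a4. For Slc29a4 every monolayer library lay below all tissue libraries in SI and above all tissue libraries in LI. Its normalized counts were 49.9 ± 3.86 (SD, n = 3) in SI monolayers and 335 ± 21.9 in LI monolayers. In tissue they were 135 ± 28.1 in SI and 147 ± 7.26 in LI. For Slc28a3 and Slc29a2 both regions moved the same way by different amounts. For Slc28a1 the LI arm rests on LI tissue libraries of 70.5, 0 and 0 normalized counts, and without LI tissue replicate 1 the fitted difference has no interpretable size.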

How the results depend on the processing

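The number of transporters called kept within 1.5 times its reported value in 98 of 99 recomputed counts. The exception was SI against LI tissue with at least 10 counts in every library, where 1 was called, because Slc28a1 no longer entered the test. Of 688 recomputed log2 differences, 664 kept their direction and side of the threshold, 9 passed the threshold that they had missed and 15 changed direction. None of the 15 belonged to a called value. Slc28a1 in LI culture ran from -0.40 to 7.71 when libraries were left out (7.71 without LI tissue replicate 1, where it is set by the prior count). Slc29a3 between SI and LI tissue was -0.019 under upper quartile normalization, -0.0042 with no filter on low counts and -0.0105 with only the 2 groups compared, and ran from -0.0233 to 0.104 with a library left out. Slc29a4 between SI and LI tissue ran from -0.262 to 0.0221, and the interaction of Slc29a3 from -0.0194 to 0.220. The cause was not tested. Slc28a1 between SI and LI monolayers passed the threshold with only the 2 groups compared (adjusted p 1.37e-04) and without LI tissue replicate 1 (adjusted p 0.00511). Upper quartile normalization moved the median of all genes in LI culture from -0.05 to -0.17.

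Same-numbered libraries did not vary together, since 0 of 18 correlations between them exceeded 0.1 (range -0.05 to 0.06). This cannot show whether any libraries shared a mouse, so a pairing of SI and LI is not excluded. The main fit has no term for the mouse. With the replicate number as a block, 5, 4, 2, 4 and 4 transporters were called in SI culture, LI culture, tissue, monolayers and the interaction, as without the block. Over all genes the block gave 5017, 7367, 4383, 4083 and 3807 calls. Without a minimum fold change these counts were 11674, 13445, 10558, 10145 and 9069, and with at least 10 counts in every library they were 3140, 4797, 2606 and 2442 in the pairwise comparisons. With 2 of 3 LI tissue libraries at 0, depth limits what can be said of Slc28a1 in LI.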
